A study of Homo sapiens with 21 samples.

Results

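The 10 genes UCHL1, MAL, FOXQ1, KCNK1, CYBRD1, FARP1, FBLN1, GRAMD2, MST4 and NGFRAP1 were near absent in most EGFR-low libraries of a vorinostat experiment in PC-9 cells, and were abundant in the EGFR-high libraries beside them. They were chosen by their symbols for exactly this pattern, out of 20111 genes listed, so the contrast between EGFR-low and EGFR-high cells in that experiment is described here and not tested. PC-9 is a human lung adenocarcinoma line that carries an activating deletion in EGFR, the epidermal growth factor receptor. The line was stained for EGFR and sorted in 6 successive rounds for its highest and lowest EGFR cells, which gave 2 pooled populations, EGFR-high and EGFR-low. Polyadenylated RNA was sequenced in 7 groups of 3 replicates, 21 libraries in all. In the first experiment the parental line and its EGFR-low and EGFR-high cells were harvested untreated, 24 h after seeding, and in the second EGFR-low and EGFR-high cells received DMSO or 1 µM vorinostat, an inhibitor of histone deacetylases, for 72 h. All groups are labelled with an EGFR deletion, although its end is written differently in each of the 21 genotype labels, which run from EGFR delE746-A750 to EGFR delE746-A770. By the study's description, the EGFR-low and EGFR-high cells were sorted from one line as pools and not as single cells. It reports that EGFR levels drifted somewhat with passage and that the fractions were kept up by sorting again. Whether every library holds cells of this origin was not tested.

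The members do not form one pathway. UCHL1 is a ubiquitin hydrolase best known from neurons and neuroendocrine cells, MST4 (STK26) is a kinase of the GCKIII group, and FOXQ1 is a forkhead transcription factor. MAL is a proteolipid of apical membrane transport, KCNK1 a potassium channel subunit, CYBRD1 a ferric reductase of the plasma membrane, GRAMD2 a protein of contacts between endoplasmic reticulum and plasma membrane, FARP1 a membrane-linked protein with a FERM domain, FBLN1 a secreted glycoprotein of the extracellular matrix, and NGFRAP1 (BEX3) a small adaptor that binds the low-affinity neurotrophin receptor.

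RefSeq (GRCh38.p14) lists 14 promoters for the 10 members, with 3 members under newer symbols (GRAMD2A, STK26 and BEX3). The 250 bases before the start held a median of 24.5 CpG dinucleotides in these 14 promoters, against 20 in the 13476 promoters of 9205 tested genes. The letters GGGCGG, on either strand, stood in 85.7% of the members' promoters and in 64.3% of all, and TATAAA, on either strand, in 21.4% and 5.80%. The TATAAA promoters were only those of KCNK1, UCHL1 and the first start of CYBRD1. Members with several starts count more than once, and their stretches partly overlap, so these shares rest on few promoters and were not tested. The members ranged widely, and 3 promoters are shown for that reason, with each CG in capitals. UCHL1, the most abundant member, has 20 CpG and both motifs (chr4:41256678-41256927, plus strand), FARP1 has at its second start the richest promoter with 37 CpG (chr13:98142844-98143093, plus strand), and NGFRAP1 has at its first start the poorest with 4 (chrX:103376073-103376322, plus strand).
UCHL1: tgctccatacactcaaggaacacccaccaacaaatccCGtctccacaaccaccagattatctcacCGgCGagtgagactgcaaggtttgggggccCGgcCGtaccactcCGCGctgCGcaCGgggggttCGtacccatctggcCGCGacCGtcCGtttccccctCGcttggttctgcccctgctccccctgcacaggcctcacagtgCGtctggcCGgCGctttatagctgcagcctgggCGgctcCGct
FARP1: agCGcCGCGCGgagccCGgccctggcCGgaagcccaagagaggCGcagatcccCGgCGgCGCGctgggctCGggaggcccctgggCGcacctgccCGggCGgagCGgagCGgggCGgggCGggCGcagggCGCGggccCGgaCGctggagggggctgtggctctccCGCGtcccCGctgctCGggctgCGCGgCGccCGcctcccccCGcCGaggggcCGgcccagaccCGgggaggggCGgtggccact
NGFRAP1: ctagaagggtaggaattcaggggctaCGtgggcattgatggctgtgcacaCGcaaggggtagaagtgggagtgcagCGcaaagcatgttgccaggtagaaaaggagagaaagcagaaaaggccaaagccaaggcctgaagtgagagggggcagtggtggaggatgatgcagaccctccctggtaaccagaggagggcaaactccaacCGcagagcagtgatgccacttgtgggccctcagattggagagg
NGFRAP1 has 2 further starts, with 18 and 25 CpG, so a CpG-poor promoter is not its only one. CYBRD1 has 6 CpG at one start and 17 at the other. No promoter feature searched was common to all 14 promoters.

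Before the levels, 2 libraries and one set of labels need stating. Across 12236 tested genes, the 5 libraries EGFR-low DMSO 2 and 3 and EGFR-low vorinostat 1 to 3 correlated with the 5 libraries EGFR-high DMSO 1 and 2 and EGFR-high vorinostat 1 to 3 at only r = 0.787 to 0.808 on the log2(FPKM + 1) scale, whereas untreated EGFR-low and EGFR-high libraries correlated at 0.881 to 0.957. EGFR-low DMSO 1 and EGFR-high DMSO 3 lay between both sets. EGFR-low DMSO 1 correlated at 0.953 to 0.960 with the 5 EGFR-low libraries and at 0.871 to 0.885 with the 5 EGFR-high libraries, and EGFR-high DMSO 3 at 0.878 to 0.889 and 0.949 to 0.971. These 2 libraries correlated with each other at 0.953. EGFR itself, in FPKM (fragments scaled to transcript length and library size), was 60.2, 26.5 and 60.6 in untreated EGFR-low cells and 269, 161 and 243 in untreated EGFR-high cells. It was 43.3, 17.7 and 19.3 in EGFR-low DMSO replicates 1 to 3 and 83.3, 152 and 109 in EGFR-high DMSO. Relative depth, read from the steps between low values, differed by 2.10 times between the deepest and the shallowest untreated library and by 2.31 times in the vorinostat experiment, with EGFR-low DMSO 1 the deepest at 1.81 times the median library. The absolute number of fragments is unknown. Of 8 markers of lung adenocarcinoma epithelium, 7 or 8 reached 1 FPKM in every group.

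**Figure D1:**
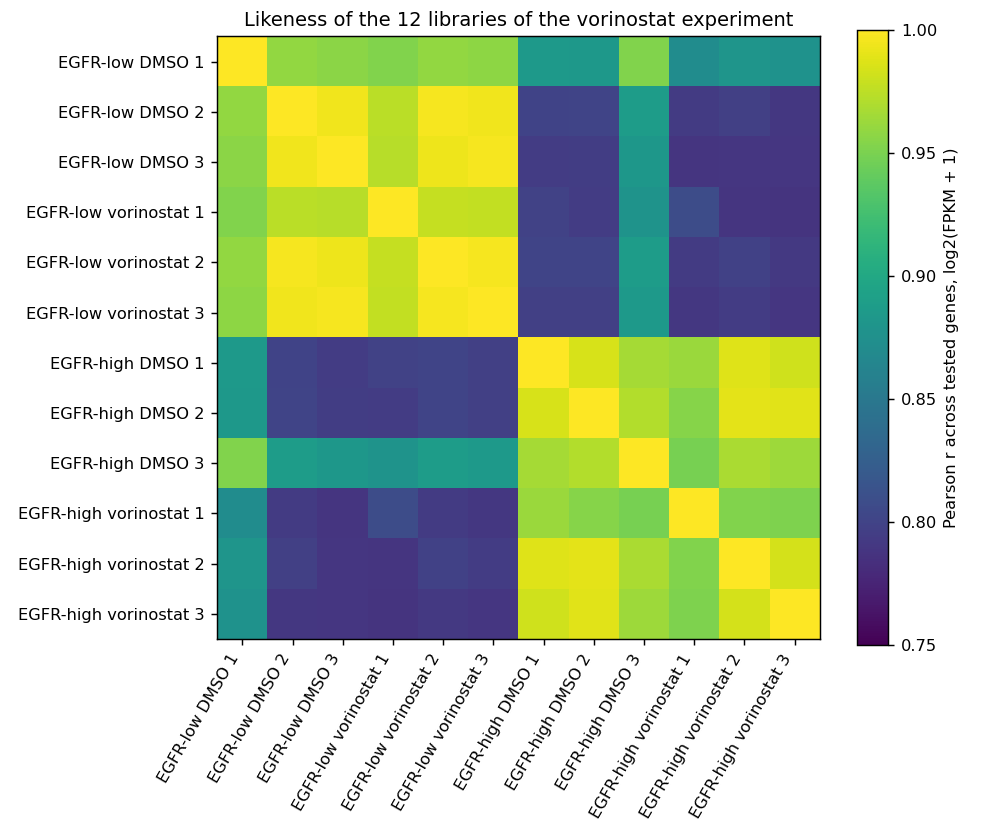
Pearson correlation (colour) between each pair of the 12 libraries of the vorinostat experiment, over log2(FPKM + 1) of 12236 tested genes. The 5 EGFR-low libraries other than DMSO 1 and the 5 EGFR-high libraries other than DMSO 3 form separate blocks (0.787 to 0.808 between them), and EGFR-low DMSO 1 and EGFR-high DMSO 3 lie between the blocks.

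All 10 members were close to 0 in the 5 libraries labelled EGFR-low other than DMSO 1, and none was close to 0 in any other library. Over the members, these 5 libraries ranged from 0.0306 (FOXQ1) to 1.52 FPKM (UCHL1), and the 6 EGFR-high libraries of DMSO and vorinostat from 17.7 (KCNK1) to 635 FPKM (UCHL1). The mean of the 5 was between 0.201% (FBLN1) and 0.486% (CYBRD1) of the mean of the 6. In bulk RNA, fewer cells with a transcript and less transcript per cell cannot be told apart. The pattern is rare but not confined to the members: of 5281 genes with at least 10 FPKM in all 6 EGFR-high libraries, 115 (2.18%) were under 2 FPKM in the 5 EGFR-low libraries, and the members are 10 of these by choice.

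Among the enzymes, UCHL1 was measured at 124, 1.04 and 0.832 FPKM in EGFR-low DMSO replicates 1 to 3 and at 1.52, 1.05 and 0.932 in EGFR-low vorinostat. It was 467, 635 and 419 FPKM in EGFR-high DMSO and 268, 511 and 436 in EGFR-high vorinostat. The lowest EGFR-high library was thus above every EGFR-low library, EGFR-low DMSO 1 included. In the untreated experiment UCHL1 was 525, 721 and 571 FPKM in EGFR-low, 497, 645 and 445 in EGFR-high and 532, 581 and 409 in parental cells, and these 3 groups overlapped. The experiments were normalized separately, so levels are set side by side across them without a test. The kinase MST4 was 6.61, 0.126 and 0.123 FPKM in EGFR-low DMSO and 0.122, 0.133 and 0.105 in EGFR-low vorinostat. EGFR-high cells held 25.9, 34.1 and 22.8 FPKM of MST4 with DMSO and 22.3, 30.7 and 31.4 with vorinostat. Untreated, MST4 was 49.2, 54.1 and 38.7 in EGFR-low, 48.7, 47.8 and 45.0 in EGFR-high and 59.4, 58.3 and 66.1 in parental cells, which lay above both sorted groups. The reductase CYBRD1 was 9.33, 0.234 and 0.152 FPKM in EGFR-low DMSO, 0.107, 0.198 and 0.118 in EGFR-low vorinostat, 40.2, 32.0 and 30.6 in EGFR-high DMSO and 22.98, 40.8 and 33.2 in EGFR-high vorinostat. Untreated EGFR-low cells held 8.29, 13.3 and 9.67 FPKM of CYBRD1, EGFR-high cells 13.9, 24.6 and 16.1 and parental cells 11.7, 15.5 and 10.7. EGFR-low DMSO 1 thus lay within the range of untreated EGFR-low cells for CYBRD1, unlike the other EGFR-low libraries of its experiment.

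Among the membrane proteins, MAL was 40.2, 0.361 and 0.608 FPKM in EGFR-low DMSO and 0.472, 0.322 and 0.877 in EGFR-low vorinostat. EGFR-high cells held 166, 279.6 and 145 FPKM of MAL with DMSO and 122, 281 and 168 with vorinostat. Untreated, MAL was 158, 156 and 147 in EGFR-low cells, 169, 218 and 231 in EGFR-high cells and 157, 178 and 152 in parental cells, so that every EGFR-low library was below every EGFR-high library by a small margin. KCNK1 was 6.23, 0.110 and 0.115 FPKM in EGFR-low DMSO, 0.0602, 0.0985 and 0.0871 in EGFR-low vorinostat, 22.9, 30.3 and 17.7 in EGFR-high DMSO and 26.0, 31.7 and 24.3 in EGFR-high vorinostat. In the 9 untreated libraries KCNK1 stayed between 15.96 and 22.5 FPKM, the narrowest range of levels among the members, and its 3 groups overlapped. GRAMD2 was 6.21, 0.156 and 0.127 FPKM in EGFR-low DMSO, 0.111, 0.191 and 0.109 in EGFR-low vorinostat, 41.0, 26.2 and 22.2 in EGFR-high DMSO and 22.9, 41.7 and 24.96 in EGFR-high vorinostat. Untreated, GRAMD2 was 7.57, 9.29 and 10.4 in EGFR-low cells, 27.0, 32.9 and 29.5 in EGFR-high cells and 19.5, 18.6 and 10.9 in parental cells, and the 3 groups did not overlap. FARP1 was 6.65, 0.131 and 0.0388 FPKM in EGFR-low DMSO, 0.0752, 0.205 and 0.0638 in EGFR-low vorinostat, 31.4, 31.7 and 24.3 in EGFR-high DMSO and 22.9, 31.5 and 26.5 in EGFR-high vorinostat. Untreated FARP1 was 32.9, 26.5 and 35.2 in EGFR-low, 36.9, 24.8 and 31.7 in EGFR-high and 30.5, 18.2 and 29.3 in parental cells, with overlap throughout.

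The matrix protein FBLN1 was 13.4, 0.178 and 0.106 FPKM in EGFR-low DMSO, 0.0956, 0.191 and 0.1003 in EGFR-low vorinostat, 63.9, 66.8 and 46.1 in EGFR-high DMSO and 44.7, 99.7 and 79.9 in EGFR-high vorinostat. Untreated, FBLN1 was 25.9, 12.3 and 27.5 in EGFR-low cells, 59.6, 70.2 and 109.7 in EGFR-high cells and 32.4, 34.4 and 24.0 in parental cells, and all EGFR-high libraries stood above the rest. FBLN1 is also made by fibroblasts, and of 8 fibroblast markers 1 reached 1 FPKM in each of the 7 groups, with a summed level of 1.02 to 5.88 FPKM over the 21 libraries. The transcription factor FOXQ1 was 7.997, 0.176 and 0.0925 FPKM in EGFR-low DMSO, 0.0306, 0.134 and 0.0586 in EGFR-low vorinostat, 28.4, 32.7 and 26.0 in EGFR-high DMSO and 23.8, 30.5 and 37.1 in EGFR-high vorinostat. Untreated FOXQ1 was 33.3, 16.8 and 35.7 in EGFR-low, 26.8, 16.7 and 29.6 in EGFR-high and 33.6, 19.7 and 36.5 in parental cells, with replicate 2 the lowest in each group. The adaptor NGFRAP1 was 19.9, 0.214 and 0.160 FPKM in EGFR-low DMSO, 0.0958, 0.130 and 0.123 in EGFR-low vorinostat, 73.7, 85.5 and 64.3 in EGFR-high DMSO and 44.7, 89.8 and 74.1 in EGFR-high vorinostat. Untreated, NGFRAP1 was 27.6, 23.1 and 24.9 in EGFR-low cells, 43.6, 45.0 and 50.9 in EGFR-high cells and 39.8, 39.6 and 39.9 in parental cells, and these groups did not overlap.

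The untreated EGFR-low cells, sorted and labelled in the same way, expressed all 10 members. The lowest untreated EGFR-low library was between 35.5 times (CYBRD1) and 345 times (UCHL1) the highest of the 5 EGFR-low libraries of the vorinostat experiment. In all 9 untreated libraries 8 of the 10 members were at 10 FPKM or more, and GRAMD2 and CYBRD1 reached down to 7.57 and 8.29 FPKM. Of the 115 genes with the wider pattern, 62 were at 10 FPKM or more in all 9 untreated libraries. In the 3 untreated EGFR-low libraries alone, 75 were at 10 FPKM or more and 4 were under 2 FPKM. A converse set of 48 of 6046 genes had at least 10 FPKM in the 5 EGFR-low libraries and under 2 in the 5 EGFR-high libraries, and 44 of the 48 were under 2 FPKM in all 9 untreated libraries. One marker picked after its values were seen, the lung lineage factor NKX2-1, was at 24.1 to 51.1 FPKM in all 6 EGFR-low libraries of the vorinostat experiment, at 11.1 in EGFR-high DMSO 3, at no more than 0.588 in the other 5 EGFR-high libraries and at no more than 0.0690 in any untreated library. Other epithelial markers of the same list were expressed in both experiments. In these 6 libraries and in untreated EGFR-low cells, EPCAM was at 232 to 282 and 260 to 292 FPKM. KRT7 was at 400 to 551 and 247 to 620 FPKM. KRT8 was lower, at 138 to 348 against 525 to 865 FPKM, and so was KRT19, at 205 to 319 against 358 to 627 FPKM. KRT18 was at 267 to 414 against 354 to 701 FPKM, with overlap. CDH1 was higher, at 108 to 138 against 56.8 to 86.3 FPKM. Whether the libraries labelled EGFR-low in the vorinostat experiment hold the same cells as the untreated EGFR-low population, and whether EGFR-low DMSO 1 and EGFR-high DMSO 3 hold RNA of both kinds of cell, was not tested, since expression values carry no genotype. The experiment, the time in culture and the treatment with DMSO also cannot be told apart from these differences. Every EGFR-low level of that experiment is therefore a level of libraries with that label.

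EGFR-low DMSO 1 held every member at an intermediate level. It ranged from 6.21 (GRAMD2) to 124 FPKM (UCHL1), which was 43.9 to 133 times the mean of EGFR-low DMSO 2 and 3. As a share of the mean of EGFR-high DMSO 1 and 2, it lay between 18.0% (MAL) and 26.1% (FOXQ1), with a median of 22.3%, although the members' levels in EGFR-high cells span more than an order of magnitude. Over all 115 genes with the pattern the median share was 22.4% (range 10.4 to 45.7%). EGFR-high DMSO 3 held the members at 65.0% (MAL) to 85.0% (FOXQ1) of EGFR-high DMSO 1 and 2. The members alone did not set it apart, since EGFR-high vorinostat 1 was lower still for all but KCNK1 and GRAMD2. UCHL1 was at 268 FPKM in EGFR-high vorinostat 1 and 419 in EGFR-high DMSO 3, and MAL at 122 and 145. In EGFR-high DMSO 3 the 48 converse genes stood at a median of 26.2% (13.5 to 50.6%) of their level in EGFR-low DMSO 2 and 3. EGFR-low DMSO 1 moved the mean contrast. With all 3 DMSO replicates UCHL1 was lower in EGFR-low cells by a log2(FPKM + 1) difference of -6.01, and without EGFR-low DMSO 1 by -8.01. Over the 10 members this difference ranged from -6.01 to -3.54 with the library and from -8.01 to -4.44 without it. With vorinostat it was -7.51 to -4.64. The 5 leukocyte markers, none of them at 0 in every DMSO library, summed to 10.4, 1.89 and 1.01 FPKM in EGFR-low DMSO replicates 1 to 3 and to 0.562, 0.241 and 3.94 in EGFR-high DMSO, so that both intermediate libraries held the highest sum of their group. They summed to 0.0310 to 4.02 FPKM in the other groups. Single genes made up much of these sums. LYZ reached 7.28 FPKM in EGFR-low DMSO and 2.76 in EGFR-high DMSO, and CD14 was at 1.42 to 3.92 in EGFR-low vorinostat. The defining marker PTPRC reached at most 0.805 FPKM, in EGFR-low DMSO, and 0.200 in EGFR-high DMSO. The 3 endothelial markers in the table summed to 7.20 to 8.24 FPKM in EGFR-low DMSO and 3.27 to 4.91 in EGFR-high DMSO, and to 5.20 to 6.60 and 2.58 to 8.21 with vorinostat. In untreated cells they summed to 5.60 to 8.30 FPKM in EGFR-low, 2.69 to 4.26 in EGFR-high and 2.27 to 3.66 in parental cells. The similar sums of EGFR-low cells hide differences between the markers. KDR was at 3.57 to 3.79 FPKM in EGFR-low DMSO, 2.33 to 3.42 in EGFR-low vorinostat and at most 0.881 in EGFR-high DMSO. In untreated libraries KDR was at no more than 0.0128 FPKM. CDH5 was at 5.59 to 8.30 FPKM in untreated EGFR-low cells and 3.57 to 4.43 in EGFR-low DMSO. The defining marker VWF was at no more than 0.0898 FPKM in any library. The part of these markers in the results was not tested.

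**Figure D2:**
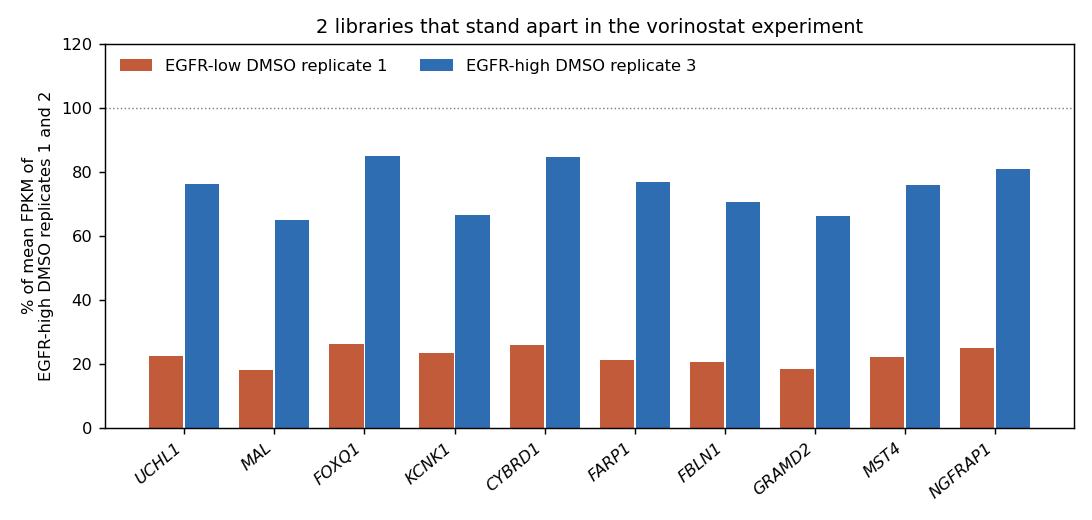
Level of each member in EGFR-low DMSO replicate 1 and EGFR-high DMSO replicate 3 as a percentage of the mean FPKM of EGFR-high DMSO replicates 1 and 2 (dotted line, 100%), 1 bar per library. The EGFR-low library lies at 18.0 to 26.1% and the EGFR-high library at 65.0 to 85.0%.

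The untreated experiment asked how the sorted populations differ. Its values were not part of the rule that chose the members, although earlier results of these data were known. There 3 of the 10 members were lower in the EGFR-low cells, relative to EGFR-high, by limma at a Benjamini-Hochberg adjusted p under 0.05, against 2.19% of 11305 tested genes (248 lower and 183 higher). Of the 115 genes with the members' pattern, the members among them, 25 were called lower and 4 higher. Calls of this kind are thus not particular to the 10 members. Among the members FBLN1 fell most, from 79.8 ± 26.4 (SD, n = 3) to 21.9 ± 8.36 FPKM. GRAMD2 fell from 29.8 ± 2.94 to 9.08 ± 1.41 FPKM and NGFRAP1 from 46.5 ± 3.85 to 25.2 ± 2.29 FPKM. The log2(FPKM + 1) changes were -1.85 for FBLN1 (SE 0.34, limma adjusted p = 0.0123), -1.62 for GRAMD2 (SE 0.26, limma adjusted p = 0.00577) and -0.86 for NGFRAP1 (SE 0.21, limma adjusted p = 0.0469). Each of these 3 was lower in 3 of 3 EGFR-low libraries, and the exact permutation p (two-sided) was 0.1, which is the lowest possible with 3 libraries a group. The call of FBLN1 was lost (limma adjusted p = 0.0617) when EGFR-high replicate 3 was left out, and that of NGFRAP1 was lost when any single one of the 6 libraries was left out (limma adjusted p = 0.112 to 0.195). GRAMD2 stayed under 0.05 in each of the 6.

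CYBRD1 was at 10.4 ± 2.60 FPKM in EGFR-low and 18.2 ± 5.69 FPKM in EGFR-high cells, a log2 difference of -0.73 (SE 0.28, limma adjusted p = 0.255). Equal replicate numbers deviated together in these groups (r = 0.343, 0.730 and 0.689 for replicates 1, 2 and 3), and in a fit blocked on these numbers CYBRD1 had a limma adjusted p of 0.0264. The block raised the number of genes called from 431 to 965. MAL differed by -0.41 (SE 0.23, limma adjusted p = 0.530). With MAL and CYBRD1, 5 of the 10 members had all EGFR-low libraries below all EGFR-high libraries, a pattern found in 11.2% of tested genes. The other 5 members, UCHL1, FOXQ1, KCNK1, FARP1 and MST4, differed by -0.09 to 0.20 on the log2 scale with SEs of 0.22 to 0.36, so that changes of that order could not be resolved. The median change was -0.25 over the members, -0.23 over the 115 genes with their pattern and -0.03 over all tested genes.

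**Figure D3:**
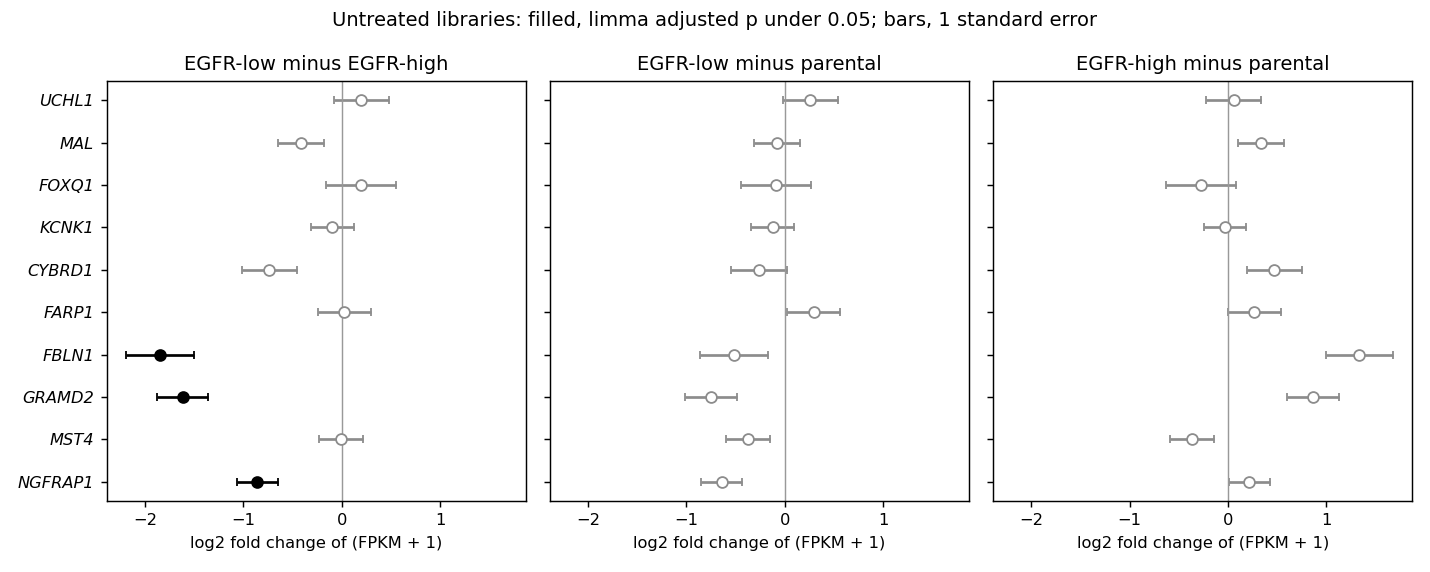
Log2 fold change of (FPKM + 1) of each member in 3 comparisons of untreated cells, with bars of 1 standard error from limma over 3 libraries per group. Filled points are FBLN1, GRAMD2 and NGFRAP1, called lower in EGFR-low cells, and no member was called against parental cells.

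Against parental cells, no member was called in EGFR-low cells, where 0.77% of tested genes were called lower (87 lower and 94 higher). At an unadjusted p under 0.05, 2 members and 1668 genes were found in limma. NGFRAP1 was at 25.2 ± 2.29 FPKM in EGFR-low and 39.8 ± 0.127 FPKM in parental cells (log2 difference -0.64, SE 0.21, limma adjusted p = 0.193), lower in 3 of 3 libraries, and GRAMD2 differed by -0.75 (SE 0.26, limma adjusted p = 0.224). MST4 also had all EGFR-low libraries below all parental libraries, at -0.38 (SE 0.22, limma adjusted p = 0.439). Thus 3 of the 10 members had all EGFR-low libraries below all parental libraries, beside 8.02% of tested genes, and the other 7 members overlapped. In EGFR-high against parental cells no member was called higher or lower, beside 0.0619% of genes called higher (7 higher and 1 lower). At an unadjusted p under 0.05, 2 members and 1093 genes were found in limma. FBLN1 was at 79.8 FPKM in EGFR-high and 30.3 FPKM in parental cells, a log2 difference of 1.34 (SE 0.34, limma adjusted p = 0.426), and GRAMD2 differed by 0.87 (SE 0.26, limma adjusted p = 0.507). FBLN1, GRAMD2 and NGFRAP1 had all EGFR-high libraries above all parental libraries, and MST4 had all below. The share of all tested genes without overlap was not taken for this comparison. These 3 comparisons share libraries and are not independent of each other.

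In EGFR-high cells, vorinostat moved no member past the threshold. The rule used these libraries for being high, but not the contrast between their treatments. Of 12236 genes 0% were called by limma with all 12 libraries, 409 had an unadjusted p under 0.05, and none of the 10 members was among these. The members' log2 changes lay between -0.35 (UCHL1, 507 ± 113 FPKM with DMSO and 405 ± 124 with vorinostat) and 0.28 (FBLN1, 58.9 ± 11.2 and 74.8 ± 27.8). With all 12 libraries, which share one estimate of the spread, the members' SEs were 0.56 (KCNK1) to 1.20 (UCHL1). Changes of 1 log2 unit could thus not be resolved for the members in that fit. Without EGFR-low DMSO 1 the SE of the UCHL1 change was 0.23. Without EGFR-low DMSO 1 and EGFR-high DMSO 3, left out together after the data were seen, the change of FOXQ1 was -0.02 (SE 0.19) and that of MST4 was -0.09 (SE 0.18), and again no gene was called. In the libraries labelled EGFR-low, the vorinostat mean was below the DMSO mean by a log2 difference of -1.85 (UCHL1) to -0.89 (GRAMD2) with DMSO 1, and between -0.09 (NGFRAP1) and 0.16 (UCHL1) without it. Vorinostat libraries of EGFR-low cells thus held the members no higher than 1.52 FPKM.

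The members were chosen to be high and low in the same libraries of the vorinostat experiment, so their pairwise correlations there, 0.987 to 0.999 (median 0.996, 45 pairs, 12 libraries), follow from the choice. In the 9 untreated libraries, whose values the rule did not use, the 45 pairs ranged from -0.77 to 0.87 with a median of -0.04. The 5 other genes with the values most like the members' mean over the 12 libraries, given as a description, were HOXB7 (r = 0.9994), VGLL1 (0.9988), CSAG1 (0.9987), PXDN (0.9984) and STK24 (0.9983). HOXB7, a homeobox factor, was at 0.412 to 0.652 FPKM in the 5 EGFR-low libraries, 9.77 in EGFR-low DMSO 1 and 25.3 to 42.7 in EGFR-high cells, and at 31.3 to 40.7 FPKM in untreated EGFR-low cells. VGLL1, a cofactor of TEAD factors, was lower in untreated EGFR-low cells (30.6 to 53.1 FPKM) than in EGFR-high cells (135 to 149 FPKM), with a log2 difference of -1.76 (SE 0.32, limma adjusted p = 0.0100). CSAG1 stayed at 73.3 to 117 FPKM and PXDN at 24.5 to 57.0 FPKM in untreated EGFR-low cells, although both were under 0.451 FPKM in the 5 EGFR-low libraries.

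The members lie on 8 chromosomes, with MST4 and NGFRAP1 on X and MAL and CYBRD1 on 2. Of the 40 tested genes nearest to them, 2 on each side by order of starts in RefSeq, none was called in limma when the untreated EGFR-low cells were set against EGFR-high cells (log2 changes -1.001 to 0.89), against 431 of 11305 genes. Of the 40, 18 had at least 10 FPKM in the 6 EGFR-high libraries, and 1 of the 18 shared the members' pattern. This was STK24, next to FARP1 on chromosome 13, a GCKIII kinase like MST4. STK24 was at 0.726 to 0.929 FPKM in the 5 EGFR-low libraries, 25.2 in EGFR-low DMSO 1, 83.9 to 139 in the EGFR-high libraries and 61.4 to 129.8 in the untreated libraries. The next tested gene, SLC15A1, a peptide transporter expressed at only 0.970 to 1.68 FPKM in EGFR-high cells and 1.69 to 3.17 FPKM in untreated cells, was at 0 to 0.0469 FPKM in the 5 EGFR-low libraries and 0.400 in EGFR-low DMSO 1. The genes on either side of this run of 3, IPO5 and DOCK9, were at 41.7 to 52.9 and 16.5 to 21.9 FPKM in the 5 EGFR-low libraries and at 54.5 to 67.8 and 26.6 to 42.9 FPKM in the EGFR-high libraries. The run was noticed after the values were seen. Around NGFRAP1, in a cluster of related BEX and TCEAL genes, WBP5 was at 0.406 to 5.95 FPKM in the 5 EGFR-low libraries and 18.8 in EGFR-low DMSO 1. In the EGFR-high libraries WBP5 was at 54.5 to 90.0 FPKM. TCEAL8, beyond WBP5, was at 3.81 to 10.6 FPKM in the 5 and 37.5 to 51.0 in the EGFR-high libraries. On the other side TCEAL4 was at 103 to 135 FPKM in the 5 and 85.2 to 133 in the EGFR-high libraries. TCEAL3, beyond TCEAL4, was at 6.08 to 8.68 and 7.77 to 9.47 FPKM.

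Of 96 genes listed as relatives or partners, 92 were in the table and 34 had at least 10 FPKM in the 6 EGFR-high libraries, of which 2, FOXA1 and STK24, were under 2 FPKM in the 5 EGFR-low libraries, beside 115 of 5281 (2.18%) of all genes at that level. FOXA1, a pioneer factor of lung epithelium and one of 3 such forkhead genes, was at 1.15 to 1.81 FPKM in the 5 EGFR-low libraries, 5.23 in EGFR-low DMSO 1, 14.8 to 28.1 in EGFR-high libraries and 16.3 to 35.7 in untreated libraries. STK25, the third GCKIII kinase, was at 30.1 to 35.0 FPKM in the 5 EGFR-low libraries and 52.3 to 59.1 in EGFR-high libraries, and PDCD10, a shared partner of these kinases, at 36.3 to 45.9 and 37.7 to 57.5 FPKM. In untreated cells 62 relatives were tested, and 3 were called lower and 3 higher in EGFR-low cells relative to EGFR-high. Over all 11305 tested genes 248 (2.19%) were called lower and 183 higher, so calls among so few relatives carry little weight. Both proteolipid relatives of MAL that were called fell, MALL from 68.8 ± 5.85 to 23.2 ± 3.20 FPKM (log2 change -1.53, SE 0.24, limma adjusted p = 0.00527) and CMTM6, which stabilizes PD-L1 at the cell surface, from 51.9 ± 15.2 to 18.6 ± 5.10 FPKM (log2 change -1.42, SE 0.28, limma adjusted p = 0.0162). The third was EFEMP1, a fibulin like FBLN1, at 0.836 ± 0.309 FPKM in EGFR-low and 2.96 ± 0.608 FPKM in EGFR-high cells (log2 change -1.11, limma adjusted p = 0.0105). Those that rose belong to the iron list of CYBRD1: the iron exporter SLC40A1 (log2 change 1.94, limma adjusted p = 0.0478) and the STEAP family genes STEAP1 (1.89, limma adjusted p = 0.00937) and STEAP2 (1.09, limma adjusted p = 0.0110). SLC40A1 was also higher than in parental cells, at 15.05 ± 12.05 against 1.69 ± 0.994 FPKM (log2 change 2.39, limma adjusted p = 0.0285). It was the single call among these lists there, beside 94 of 11305 tested genes called higher. No relative was called in EGFR-high against parental cells or with vorinostat in EGFR-high cells.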

How the data were processed

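RNA of 21 PC-9 libraries (7 groups of 3 replicates, which the study calls biological replicates) was analysed as deposited by the authors, in one table for the untreated and one for the vorinostat experiment. The submitters' processing notes name hg19, STAR 2.5.1b, Cufflinks 2.2.1 and DESeq2 1.10.1, with no role given for each. The authors' values are called gene counts but are not whole numbers, and they were treated as deposited FPKM, which Cufflinks scales to transcript length and mapped fragments. FPKM sums were 467897 to 592942 per library in the untreated and 511011 to 582866 in the vorinostat experiment. Relative depth was read from ratios of values under 0.15 FPKM, which fall on the ratio of single fragments, and agreed within 0.02 log2 in all 36 and 66 pairs of libraries. Every column was used.

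Genes that reached 1 FPKM in 3 or more libraries of a table were tested, 11305 untreated and 12236 in the vorinostat experiment, all 10 members included in both. Log2(FPKM + 1) was fitted in limma 3.58.1 (R 4.3.3) with one mean per group, a mean-variance trend and no replicate block, over all libraries of a table, with Benjamini-Hochberg adjustment over all tested genes. A fold change on this scale understates that of low genes. The tables were never tested against each other. Single members were also compared by exact two-sided permutation of 3 against 3 libraries, whose smallest p is 0.1. The fit was tested on simulated data: for untreated EGFR-low against EGFR-high cells (11179 genes) it recovered 18% of changes of 1 log2 unit and 70% of changes of 2, and for vorinostat in EGFR-high cells (11942 genes) 73% and 96%. The changed genes were drawn at random from those with a mean log2(FPKM + 1) above 3, with normal noise. These rates are therefore not those of the members, whose SEs with vorinostat in EGFR-high cells were 0.56 (KCNK1) to 1.20 (UCHL1).

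The members, the lists of relatives and markers, the naming rule and the tests were chosen with earlier results of these data known. Named genes were the members, EGFR, called relatives, neighbours and the 5 genes most like the members' mean z score, with exceptions stated. Of 11305 tested genes 11133 were placed by RefSeq. Its build is GRCh38.p14 and the files' build is hg19, so only gene order and RefSeq's own promoter positions were used. Alternatives were pseudocounts of 0.1 and 5, no filter, a filter of 5 FPKM, quantile and median-of-ratios scaling, only the compared groups, a replicate block and leaving out each library.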

Additional observations from a re-analysis of the deposited data

How the results depend on the processing

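With FPKM alone, the counting error behind a level near 0.1 FPKM is unknown, and no test compared the experiments. Over the alternatives with all libraries FBLN1 and GRAMD2 stayed called lower in untreated EGFR-low than EGFR-high cells (limma adjusted p = 0.00520 to 0.0280 and 0.00514 to 0.0107). NGFRAP1 lost its call with a filter of 5 FPKM (limma adjusted p = 0.0608), median-of-ratios scaling (0.0549) and only the compared groups (0.0818), and kept it in the others (lowest 0.0103). The members called lower numbered 1 to 2 when a library was left out, with 1 without EGFR-high replicate 3. Against parental cells 1 member, NGFRAP1, was called lower with no filter (limma adjusted p = 0.0456), instead of 0.

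In the untreated EGFR-low against EGFR-high comparison, all genes called numbered 431, and 660 with no filter, 206 with a filter of 5 FPKM and 205 to 337 with a library left out. Between EGFR-low and parental cells they numbered 181, and 331, 82, 107 with only the compared groups, and 67 to 252. Between EGFR-high and parental cells they numbered 8, and 15, 3, 2 with only the compared groups, and 2 to 8. For vorinostat in EGFR-high cells the count was 0 in every setting, with 138 to 1203 genes at an unadjusted p under 0.05 in limma. The cause of these moves was not tested.

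The replicate block gave 965 calls between EGFR-low and EGFR-high cells and 525 between EGFR-low and parental cells, where it also called NGFRAP1 (limma adjusted p = 0.0488). There same-numbered libraries deviated together with r = 0.587, 0.416 and -0.09, so the pairing was not held to be shown; in EGFR-high against parental cells (0.434, 0.757 and -0.002) and for vorinostat (0.060, 0.189 and -0.143) it was not either.

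Small changes turned sign. MST4 in EGFR-low against EGFR-high cells was 0.044 with quantile and 0.029 with median-of-ratios scaling, MAL between EGFR-low and parental cells 0.011 with quantile scaling, UCHL1 between EGFR-high and parental cells -0.082 and -0.047, and GRAMD2 with vorinostat 0.045 and 0.060. Without both EGFR-low DMSO 1 and EGFR-high DMSO 3, an alternative added after seeing the data, the vorinostat changes of FOXQ1 and MST4 were -0.023 and -0.094.
With single libraries left out, the log2 change ranged for EGFR-low against EGFR-high cells from -0.047 to 0.52 (FOXQ1), -0.17 to 0.032 (KCNK1), -0.12 to 0.15 (FARP1) and -0.11 to 0.13 (MST4). Against parental cells it ranged in EGFR-low cells from -0.35 to 0.25 (FOXQ1) and -0.20 to 0.0010 (KCNK1), and in EGFR-high cells from -0.093 to 0.17 (UCHL1) and -0.088 to 0.018 (KCNK1). With vorinostat in EGFR-high cells it ranged from -0.39 to 0.21 (MAL), -0.10 to 0.21 (FOXQ1), -0.29 to 0.11 (CYBRD1), -0.26 to 0.25 (GRAMD2), -0.094 to 0.19 (MST4) and -0.36 to 0.14 (NGFRAP1). None of these was called in any setting.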
